A study of Arabidopsis thaliana with 40 samples.

Results

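The comparison of oastlB with wild type (WT) after 6 h of high light rests on 8 arrays, 4 of oastlB and 4 of WT, out of 40 in the series, chosen by their titles. Arabidopsis thaliana plants of 28 days, grown in soil in short days (8 h light, 16 h darkness), were lit at 800 µmol quanta m-2 s-1 during 6 h, and their shoots gave total RNA for Affymetrix arrays, 1 array per biological replicate. Beside these groups stand oastlB and WT kept in normal light (80 µmol quanta m-2 s-1) and serat2;1 in high light and, for a few genes, the lines cyp20-3 and 2cysprx in high light, with 4 arrays each. The labels name no allele for a line, and neither they nor the design text used here say how many plants made a sample. oastlB is named for the plastid O-acetylserine(thiol)lyase, and serat2;1 for the plastid serine acetyltransferase. The comparison asks how loss of this enzyme shapes transcript levels in strong light.

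Cysteine is made in 2 steps: serine acetyltransferase forms O-acetylserine, and O-acetylserine(thiol)lyase replaces its acetyl group with sulfide. The 2 enzymes bind each other as the cysteine synthase complex, and plants hold forms of both in the cytosol, plastids and mitochondria. Plastids also reduce sulfate to the sulfide that the second step uses. Cysteine feeds glutathione, the main soluble thiol of the leaf, and high light raises the demand for reducing power and for protection against reactive oxygen.

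Levels are log2 RMA values, differences are oastlB minus WT ± standard error from a limma fit over all 40 arrays, and a gene is called at a Benjamini-Hochberg adjusted p under 0.05 over all 27826 probe sets. In high light 125 genes were called higher and 113 lower in oastlB, 0.855% of those tested, and 39 of the 238 differed at least 2-fold. With only the 8 compared arrays in the fit, 31 genes were called, and 19 of the 238 were among them. With each of the 8 arrays left out in turn, 36 of the 238 stayed called in every fit. The 4 oastlB values did not overlap the 4 WT values in 215 of the 238 genes, and in 8.06% of all genes. Pearson's r across genes was 0.984 to 0.991 within the oastlB arrays, 0.990 to 0.993 within the WT arrays and 0.982 to 0.991 between them. Leaf markers (RBCS1A, LHCB1.3, CA1, RCA) read 11.8 to 13.8 in both groups, and root and floral markers read at most 4.12. None of the 24 markers of leaf, root, floral, guard, myrosin and dividing cells was called by limma, and 1 had an unadjusted p under 0.05, against 13.8% of all genes. The summed level of the 4 guard cell markers was 22.73 to 23.57 in oastlB and 23.59 to 23.93 in WT, and that of 6 markers of dividing cells was 28.18 to 29.05 in oastlB and 27.93 to 30.98 in WT. Their part in the results below was not tested. In whole shoots, fewer cells of a type and less RNA per cell cannot be told apart.

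The transcript of the plastid lyase itself, OASB (locus AT2G43750), was the one lowest relative to WT. Its level was 4.34, 4.67, 4.57 and 3.44 in oastlB, against 9.13, 9.15, 9.03 and 9.01 in WT. Every oastlB array lay far below every WT array, and replicate 4 of oastlB was the lowest. The difference was -4.83 ± 0.14, adjusted p = 7.8e-24, a 28.4-fold lower level. In normal light it was -4.51 ± 0.14, and the difference between both light conditions was not called (-0.32 ± 0.19, adjusted p = 0.451). The annotated spans of AT2G43745 and AT2G43760 overlap the ends of OASB in the reference table, and neither was called (-0.37 ± 0.18 and 0.05 ± 0.14). Of 228 genes within 1000 locus numbers of OASB, 2 were called, OASB itself and PIF4, against 0.855% of all genes.

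The other 12 genes of cysteine synthesis showed no called difference in high light, which the plot of their values by array shows. The lyases of cytosol and mitochondria, OASA1 and OASC, differed by -0.09 ± 0.08, adjusted p = 0.655 and -0.23 ± 0.15, adjusted p = 0.504. OASA1 read 8.46, 8.16, 8.18 and 8.13 in oastlB, against 8.40, 8.38, 8.22 and 8.31 in WT, and both groups overlapped. The difference was 0.11 ± 0.07 for CYSC1, the mitochondrial cyanoalanine synthase, and 0.33 ± 0.20 for DES1, a cysteine desulfhydrase. Among serine acetyltransferases, SERAT2;1 of the plastid read 6.52, 6.70, 6.53 and 6.65 in oastlB, against 6.33, 6.30, 6.28 and 6.46 in WT. All 4 oastlB values of SERAT2;1 lay above the WT values, but the difference missed the threshold (0.26 ± 0.14, adjusted p = 0.427). SERAT1;1 of the cytosol (0.20 ± 0.09), SERAT2;2 of mitochondria (0.07 ± 0.10) and SERAT3;1 and SERAT3;2 (-0.10 ± 0.14 and 0.61 ± 0.25) were not called, nor were CYSD1 and CYSD2 (0.01 ± 0.11 and -0.01 ± 0.15). CS26, which makes S-sulfocysteine in plastids, was called higher in oastlB in normal light (0.61 ± 0.11, adjusted p = 9.1e-04) and stood at -0.03 ± 0.11 in high light. The difference between the lights was called for CS26 (-0.64 ± 0.15, adjusted p = 0.0167).

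**Figure D1:**
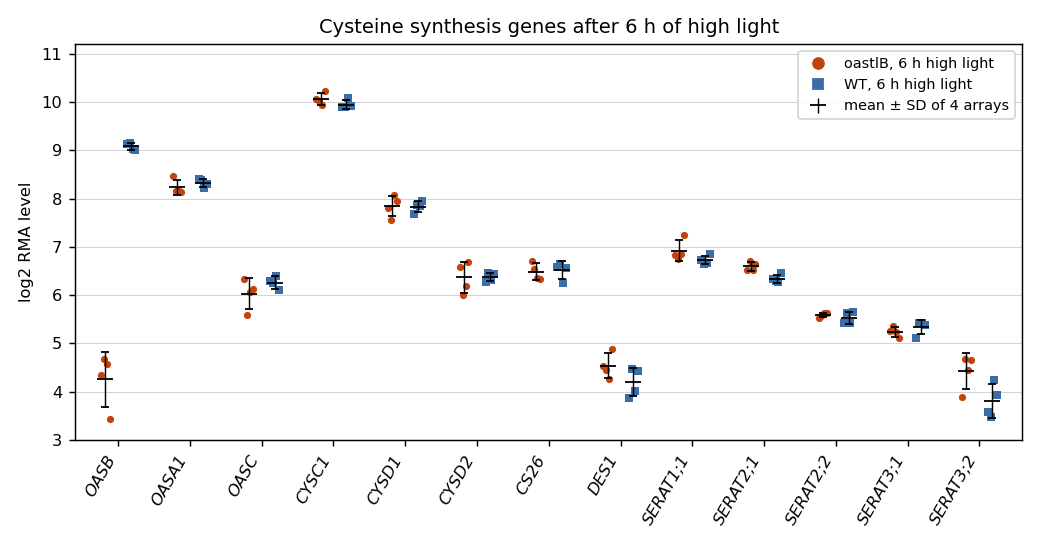
Log2 RMA levels of the 13 genes of the cysteine synthase list after 6 h of high light, oastlB (circles) left of WT (squares), with each array as a point and the mean ± SD of 4 arrays in black. OASB reads 3.44 to 4.67 in oastlB and 9.01 to 9.15 in WT, while no other gene has an adjusted p under 0.05.

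Outside OASB, 1 of 58 genes of sulfur uptake, reduction, starvation response, cysteine and glutathione was called in high light, against 0.855% of all genes. It was SULTR4;2 (AT3G12520), a vacuolar membrane transporter that releases stored sulfate. SULTR4;2 read 6.32, 6.42, 6.37 and 6.27 in oastlB, against 5.97, 5.63, 5.72 and 5.53 in WT. All oastlB arrays were above all WT arrays, and the difference was 0.63 ± 0.15, adjusted p = 0.0384. In high light SULTR4;2 averaged 6.34 in oastlB, 5.85 in serat2;1, 6.03 in cyp20-3 and 6.43 in 2cysprx, against 5.71 in WT. The higher level was thus not particular to oastlB. The call was lost without oastlB replicates 2, 3 or 4 or WT replicates 2, 3 or 4 (0.57 to 0.65, adjusted p = 0.074 to 0.142). No member of the sulfate activation and reduction list was called by limma, and 1 of 12 had an unadjusted p under 0.05, against 13.8% of all genes. Its members farthest from 0 were APK2, an adenylylsulfate kinase (0.21 ± 0.09, adjusted p = 0.306), and APR3, an adenylylsulfate reductase (0.20 ± 0.12, adjusted p = 0.501). APR1, another adenylylsulfate reductase, was called lower in oastlB in normal light (-0.41 ± 0.12, adjusted p = 0.046) but read 0.18 ± 0.12 in high light, and the difference between the lights was called (0.60 ± 0.17, adjusted p = 0.0462).

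The sulfur starvation genes and the genes of glutathione synthesis and turnover had no called member either, and 1 of 11 and 2 of 11 had an unadjusted p under 0.05, near the 13.8% of all genes. SDI1, which represses glucosinolate synthesis when sulfur is short, read 3.97, 3.88, 3.73 and 3.38 in oastlB, against 3.99, 3.90, 3.71 and 3.57 in WT, and these values overlapped (-0.05 ± 0.26). The largest differences among starvation genes were those of LSU4 (0.36 ± 0.26, adjusted p = 0.583) and SHM7 (0.30 ± 0.11, adjusted p = 0.171). In glutathione turnover they were those of the gamma-glutamyl transferases GGT4 (0.39 ± 0.11, adjusted p = 0.0908) and GGT1 (-0.32 ± 0.10, adjusted p = 0.124). The median difference over all 58 genes without OASB was 0.09, against 0.00 over all genes tested.

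Genes of flavonoid and anthocyanin synthesis were higher in oastlB in high light, with 8 of 38 called. Of 16 early flavonoid and flavonol genes 4 rose and none fell, and of 22 anthocyanin genes and regulators 4 rose and none fell, against 0.449% of all genes called higher. Differences were above 0 for 15 of the 16 and 17 of the 22, with list medians of 0.35 and 0.60. In 18 of the 38, the oastlB values lay wholly above those of WT, against 3.97% of all genes. The mean level of the 38 genes was 5.89, 5.76, 5.86 and 5.98 on the oastlB arrays and 5.32, 5.40, 5.32 and 5.34 on the WT arrays. A further 15 of the 38 that were not called higher had an unadjusted p under 0.05 with a positive difference. With them, 23 of the 38 had such a p with a positive difference and 3 with a negative one. Of all 27826 probe sets, 1876 and 1951 did.

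Along the early pathway, CHS (AT5G13930), the chalcone synthase that commits carbon to flavonoids, rose by 0.66 ± 0.17, adjusted p = 0.0461. CHS read 9.26, 9.32, 9.58 and 9.85 in oastlB, against 8.91, 8.89, 8.66 and 8.92 in WT. The next steps, CHI (chalcone isomerase, 0.48 ± 0.11, adjusted p = 0.0237) and CHIL (a chalcone isomerase-like protein that assists it, 0.77 ± 0.19, adjusted p = 0.0476), rose as well. F3H (AT3G51240), the flavanone 3-hydroxylase, showed the largest called rise of the early genes. It read 7.14, 7.10, 7.50 and 7.77 in oastlB, against 6.25, 6.34, 5.86 and 5.99 in WT, so that all oastlB arrays were above all WT arrays (1.27 ± 0.21, adjusted p = 0.0014). In normal light F3H stood at 0.19 ± 0.21, and the difference between the lights was called (1.08 ± 0.29, adjusted p = 0.0374). An annotated long noncoding RNA, AT3G51238, whose span overlaps that of F3H, gave 1.02 ± 0.24, adjusted p = 0.0321, and its probes may not be distinct from those of F3H. F3'H, the flavonoid 3'-hydroxylase, had a larger estimate that missed the threshold (1.39 ± 0.36, adjusted p = 0.0509), with 5.63, 5.93, 6.41 and 6.97 in oastlB, against 4.81, 4.94, 5.01 and 4.62 in WT.

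Late in the pathway, DFR (AT5G42800), the dihydroflavonol reductase that opens the branch to anthocyanins, rose most. DFR read 9.02, 8.93, 9.47 and 9.73 in oastlB, against 7.58, 7.74, 7.65 and 7.72 in WT. All oastlB arrays exceeded all WT arrays, with replicates 3 and 4 the highest (1.62 ± 0.37, adjusted p = 0.027). GSTF12, the glutathione S-transferase that carries anthocyanins toward the vacuole, rose by 1.32 ± 0.27, adjusted p = 0.0114, and read 7.09, 6.85, 7.20 and 7.65 in oastlB, against 5.67, 5.85, 6.03 and 5.97 in WT. The acyltransferases 3AT1 (2.64-fold, standard error 0.27 on the log2 scale, adjusted p = 0.0081) and 5MAT (1.15 ± 0.22, adjusted p = 0.0069), which add coumaroyl and malonyl groups to anthocyanins, rose too. 3AT1 read 7.62, 7.74, 7.88 and 7.98 in oastlB, against 6.56, 6.53, 6.19 and 6.34 in WT. 5MAT read 7.51, 7.23, 7.65 and 7.85 in oastlB, against 6.58, 6.41, 6.38 and 6.26 in WT, again without overlap.

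Other anthocyanin enzymes had separate values but missed the threshold, and they were picked out after their values were seen. LDOX, the anthocyanidin synthase, read 6.79, 6.64, 7.21 and 7.38 in oastlB, against 5.54, 5.54, 5.64 and 5.89 in WT (1.35 ± 0.40, adjusted p = 0.0919). UF3GT, a glycosyltransferase of anthocyanins, read 6.28, 5.88, 6.30 and 6.25 in oastlB, against 4.79, 4.73, 4.86 and 5.04 in WT (1.32 ± 0.39, adjusted p = 0.0919), and UGT75C1 (0.96 ± 0.26, adjusted p = 0.0619) and 3AT2 (0.85 ± 0.23, adjusted p = 0.0635) were similar. Among the regulators, the MYB activators PAP1 (0.54 ± 0.20, adjusted p = 0.206) and PAP2 (0.72 ± 0.21, adjusted p = 0.0809) and their basic helix-loop-helix partners TT8 (0.57 ± 0.20, adjusted p = 0.168) and GL3 (0.79 ± 0.26, adjusted p = 0.136) were not called. LBD39, a repressor of anthocyanin genes, was called higher in oastlB in normal light (0.78 ± 0.17, adjusted p = 0.007) and read -0.21 ± 0.17 in high light (-0.99 ± 0.24 for the difference between the lights, adjusted p = 0.0224).

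In normal light the median difference of the 38 genes was 0.29. There 3 were called higher in oastlB (4CL3, FLS1 and LBD39), against 2.15% of all genes. The difference between the lights was called higher for F3H and lower for LBD39 among the 38, against 2.80% of all genes called either way. For the other 7 genes called in high light it missed the threshold, with CHS at 0.12 ± 0.23, adjusted p = 0.874 and DFR at 1.26 ± 0.52, adjusted p = 0.207.

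F3H, 3AT1 and 5MAT stayed called with each of the 8 arrays left out in turn, GSTF12 in 7 of the 8 fits and DFR in 2. GSTF12 lost its call without oastlB replicate 4 (1.16, adjusted p = 0.079), and DFR lost it without oastlB replicates 3 or 4 or WT replicates 1, 2, 3 or 4 (1.47 to 1.64, adjusted p = 0.0597 to 0.112). CHS was not called without oastlB replicates 2, 3 or 4 or WT replicates 1, 2, 3 or 4 (0.54 to 0.72, adjusted p = 0.054 to 0.198). CHIL was not called without oastlB replicates 2, 3 or 4 or WT replicates 1, 2, 3 or 4 (0.65 to 0.82, adjusted p = 0.0772 to 0.196), nor CHI without oastlB replicate 4 or WT replicates 3 or 4 (0.42 to 0.45, adjusted p = 0.08 to 0.115), nor AT3G51238 without oastlB replicates 2, 3 or 4 or WT replicates 1, 2, 3 or 4 (0.95 to 1.04, adjusted p = 0.0633 to 0.113). Over these 8 fits the early list had 1 to 5 called members and the anthocyanin list 2 to 4, all higher in oastlB. With only the 8 arrays in the fit, 1 early and 7 anthocyanin genes were called.

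**Figure D2:**
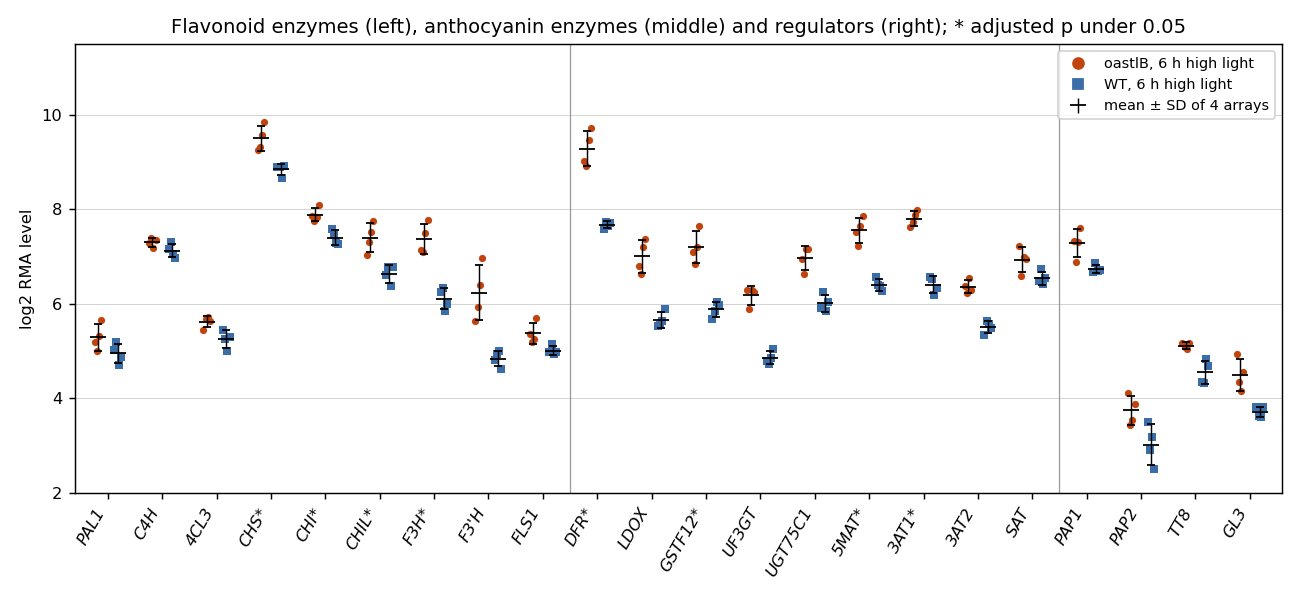
Log2 RMA levels of flavonoid enzymes (left of the first line), anthocyanin enzymes (middle) and regulators (right) after 6 h of high light, oastlB (circles) left of WT (squares), with the mean ± SD of 4 arrays in black and an asterisk for an adjusted p under 0.05. From CHS to 3AT2 every gene has its oastlB values above its WT values.

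Genes of light harvesting and chlorophyll synthesis ran the other way. Of 18 light harvesting genes 3 fell and 1 rose in oastlB, and of 13 chlorophyll synthesis genes 2 fell and none rose, against 0.406% of all genes called lower. The difference was above 0 for 2 of the 18 and 1 of the 13, with medians of -0.18 and -0.12. In 7 of the 18 and 3 of the 13 the oastlB values lay wholly below those of WT, against 4.09% of all genes. The mean level of the 18 light harvesting genes was 9.57, 9.62, 9.57 and 9.54 on the oastlB arrays, all below the 9.75, 9.80, 9.73 and 9.82 on the WT arrays. For the 13 chlorophyll genes it was 8.98, 8.98, 8.90 and 8.81 on the oastlB arrays against 9.06, 9.11, 9.08 and 9.10 on the WT arrays.

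The falls in light harvesting were in LHCB1, the main antenna protein of photosystem II. LHCB1.4 (AT2G34430) read 11.13, 11.51, 11.23 and 11.43 in oastlB, against 11.58, 11.98, 11.86 and 12.03 in WT, lower on every oastlB array (-0.54 ± 0.11, adjusted p = 0.0132). LHCB1.2 read 10.78, 10.93, 10.71 and 10.77 in oastlB, against 11.12, 11.41, 11.00 and 11.24 in WT, also without overlap (-0.40 ± 0.08, adjusted p = 0.0114). LHCB1.1 fell (-0.72 ± 0.14, adjusted p = 0.0091), at levels of 2.06, 1.78, 2.14 and 2.08 in oastlB, against 2.68, 2.64, 2.63 and 2.98 in WT, near those of the root and floral markers. The 5 LHCB1 genes are close copies of each other, so the probes may share signal. LHCA3, an antenna protein of photosystem I, rose (0.34 ± 0.08, adjusted p = 0.0237) and read 11.23, 11.31, 11.25 and 11.28 in oastlB, against 10.99, 10.79, 10.80 and 11.11 in WT. LHCA4 read 13.48 on all 4 oastlB arrays and RBCS1A 13.81 on all 8 arrays, so that the normalized values of these bright genes tie and a difference between tied values cannot be seen.

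In chlorophyll synthesis, PORB (AT4G27440), a protochlorophyllide oxidoreductase, fell (-0.38 ± 0.07, adjusted p = 0.0056). PORB read 10.96, 11.09, 10.99 and 10.82 in oastlB, against 11.24, 11.32, 11.35 and 11.45 in WT, with no overlap. GUN4, which activates magnesium chelatase, fell (-0.55 ± 0.14, adjusted p = 0.0449) and read 5.27, 5.29, 5.16 and 4.85 in oastlB, against 5.41, 5.85, 5.55 and 5.98 in WT. In high light PORB averaged 10.96 in oastlB, 11.18 in serat2;1, 11.21 in cyp20-3 and 11.19 in 2cysprx, against 11.34 in WT. GUN4 averaged 5.14, 5.24, 4.97 and 5.56 in that order, against 5.70 in WT, so cyp20-3 was the lowest line. In normal light GUN4 stood at 0.41 ± 0.14, and the difference between the lights was -0.97 ± 0.20, adjusted p = 0.0048. The difference between the lights was also called, and negative, for PORB (-0.40 ± 0.10), HEMA1, the glutamyl-tRNA reductase (-0.63 ± 0.14), CAO, the chlorophyllide a oxygenase (-0.47 ± 0.10), and CHLG, the chlorophyll synthase (-0.32 ± 0.09), so 5 of 13 chlorophyll genes were called there, against 2.80% of all genes. HEMA1 and CAO were called higher in oastlB in normal light (0.38 ± 0.10, adjusted p = 0.0271 and 0.27 ± 0.07, adjusted p = 0.021).

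PORB stayed called with any 1 array left out. LHCB1.1 lost its call without WT replicate 4 (-0.63, adjusted p = 0.0541), LHCB1.2 without WT replicates 2 or 4 (-0.38 to -0.33, adjusted p = 0.054 to 0.0707) and LHCB1.4 without WT replicates 2 or 4 (-0.49 to -0.48, adjusted p = 0.0589 to 0.0728). GUN4 lost it without oastlB replicates 2, 3 or 4 or WT replicates 2, 3 or 4 (-0.60 to -0.46, adjusted p = 0.054 to 0.196), and LHCA3 without oastlB replicates 2 or 4 or WT replicates 2 or 3 (0.30 to 0.34, adjusted p = 0.0599 to 0.101). None of these 6 genes was called with only the 8 arrays in the fit.

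**Figure D3:**
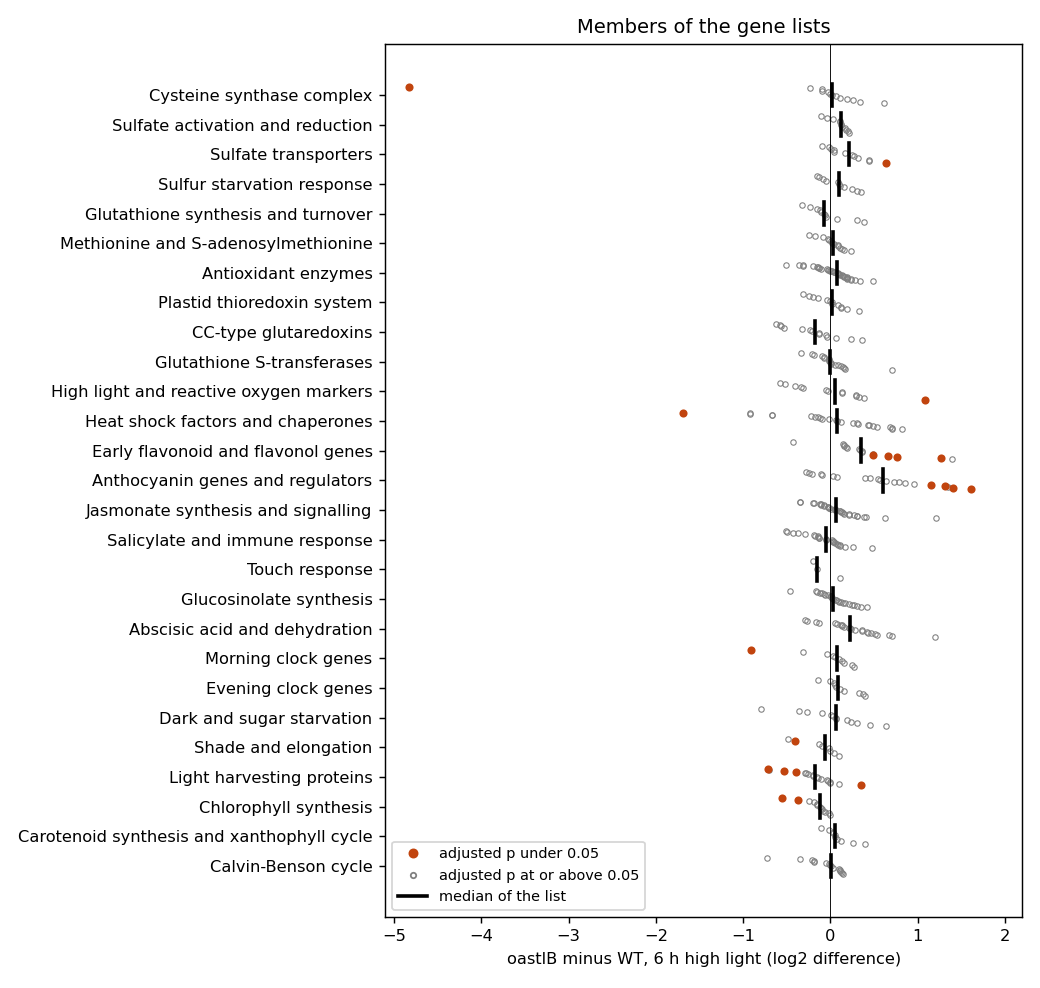
Difference of oastlB from WT after 6 h of high light (log2, horizontal axis) for every measured member of the gene lists, 1 row per list, with called members as filled circles and the list median as a black bar. The called members lie to the right in the flavonoid and anthocyanin lists and mostly to the left in light harvesting and chlorophyll synthesis.

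Of 14 markers of high light and reactive oxygen 1 was called, against 0.855% of all genes. It was ELIP1 (AT3G22840), an early light-induced protein of the thylakoid. ELIP1 read 5.42, 5.57, 4.82 and 5.45 in oastlB, against 4.13, 4.71, 4.05 and 4.05 in WT. Each oastlB array was above each WT array (1.08 ± 0.20, adjusted p = 0.0069), and the call held with any 1 array left out but not with only the 8 compared arrays (adjusted p = 0.0896). ELIP2 differed by 0.29 ± 0.19, adjusted p = 0.533. The 37 antioxidant enzymes, 13 plastid thioredoxin genes, 14 CC-type glutaredoxins and 19 glutathione S-transferases (without GSTF12, which stands in the anthocyanin list) had no member called by limma, while 21 of the 83 had an unadjusted p under 0.05, against 13.8% of all genes. Methionine synthesis, jasmonate, salicylate, glucosinolate, carotenoid and Calvin-Benson cycle lists and the touch response list had no called member either, with 1 of 14, 5 of 32, 3 of 25, 4 of 27, 1 of 10, 3 of 16 and 0 of 3 members at an unadjusted p under 0.05.

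Heat shock genes differed more between arrays of a group than between the groups. The mean level of 26 heat shock factors and chaperones was 5.02, 6.47, 5.01 and 4.98 on the oastlB arrays and 5.13, 4.59, 5.60 and 6.11 on the WT arrays. Replicate 2 of oastlB stood above the other oastlB arrays, and WT ranged from its replicate 2 at the bottom to its replicate 4 at the top. HSP17.8, a small heat shock protein, read 5.61, 8.98, 5.45 and 5.21 in oastlB, against 5.79, 4.98, 6.97 and 8.00 in WT. HSP101, which rescues aggregated proteins, read 6.55, 8.79, 6.37 and 6.47 in oastlB, against 6.62, 5.74, 7.91 and 8.64 in WT (-0.18 ± 0.41). Of the 26, 1 was called, against 0.855% of all genes. It was HSFA2 (AT2G26150), a heat-inducible transcription factor of this response, lower in oastlB (-1.69 ± 0.43, adjusted p = 0.0495).

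HSFA2 read 4.92, 5.49, 4.73 and 4.01 in oastlB, against 6.18, 4.305, 7.25 and 8.16 in WT. WT replicate 2 lay below 3 of the 4 oastlB arrays, so the groups overlapped. The HSFA2 call was lost without oastlB replicates 1, 3 or 4 or WT replicates 1, 3 or 4 (-1.78 to -1.12, adjusted p = 0.0622 to 0.245), and was at its weakest without WT replicate 4 (-1.12, adjusted p = 0.245). The count of all called genes was 133 without oastlB replicate 2, 113 without WT replicate 2 and 73 without WT replicate 4. The count was lowest, at 69, without oastlB replicate 4, whose mean heat shock level was 4.98. It was 130 without WT replicate 3. These counts therefore do not follow the heat shock levels alone.

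**Figure D4:**
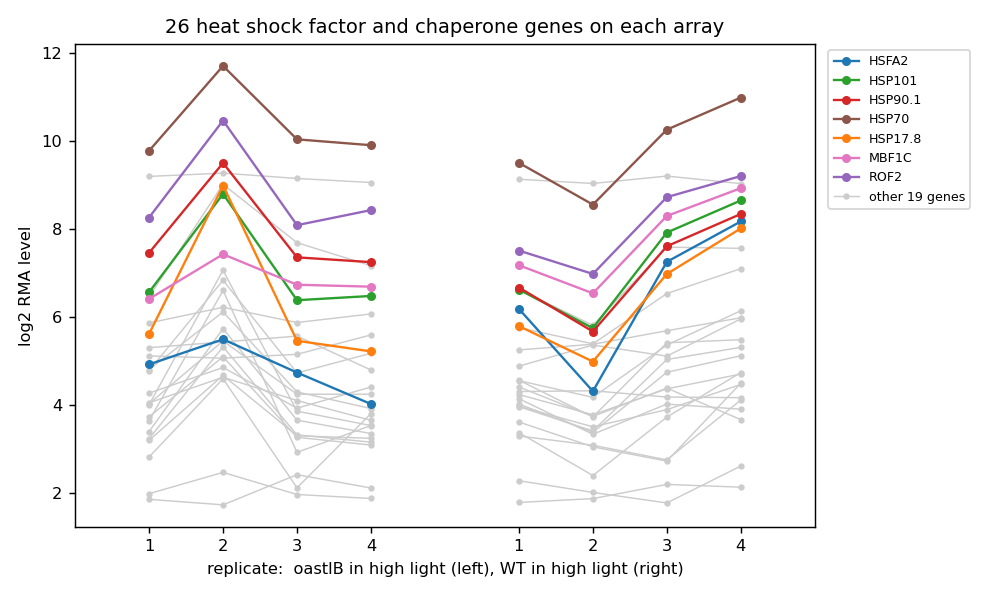
Log2 RMA levels of 26 heat shock factor and chaperone genes on each array after 6 h of high light, oastlB replicates on the left and WT replicates on the right, with 7 genes in colour and the others in grey. A line joins the values of 1 gene, replicates have no order, and the levels of different genes cannot be compared; replicate 2 of oastlB and replicate 4 of WT are high.

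Beyond these lists, the largest rise was that of NUDT24 (AT5G19470), a Nudix hydrolase. NUDT24 read 6.52, 5.91, 7.37 and 8.13 in oastlB, against 4.49, 4.35, 4.43 and 3.58 in WT. All oastlB arrays were above all WT arrays, and replicate 4 of oastlB was the highest (2.77 ± 0.38, adjusted p = 1.9e-04, 6.81-fold). AHP4, of the phosphotransfer protein family of cytokinin signalling, read 5.43, 6.66, 5.82 and 6.86 in oastlB, against 4.92, 4.82, 4.72 and 3.86 in WT (1.61 ± 0.28, adjusted p = 0.0034). Both calls held with any 1 array left out, but with only the 8 compared arrays NUDT24 had adjusted p = 0.0522 and AHP4 adjusted p = 0.112. Further rises without overlap were those of GH3.4, of the family that conjugates auxin to amino acids (1.24 ± 0.22, adjusted p = 0.0046), GGPS3, a geranylgeranyl diphosphate synthase (1.12 ± 0.19, adjusted p = 0.002), PYD4 (1.07 ± 0.22, adjusted p = 0.0106) and the MADS-box gene AGL34 (1.18 ± 0.30, adjusted p = 0.0476).

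GH3.4 read 3.96, 4.53, 4.34 and 4.06 in oastlB, against 2.93, 3.12, 3.04 and 2.84 in WT, a narrow spread in both groups. The WT values of GH3.4, PYD4, AGL34, SAG12, AT2G03933 and AT4G07940 all lay below 4.12, the highest value of the root and floral markers. Loci without a gene name in the reference that rose were AT2G03933 (1.54 ± 0.37, adjusted p = 0.0369), AT4G07940 (1.16 ± 0.20, adjusted p = 0.0034) and AT4G28870 (1.14 ± 0.24, adjusted p = 0.0138). PYD4 lost its call without WT replicate 4 (0.94, adjusted p = 0.0625), and AT4G28870 without oastlB replicate 4 or WT replicate 2 (0.91 to 1.08, adjusted p = 0.0711 to 0.0848). AGL34 lost it without oastlB replicates 2, 3 or 4 or WT replicates 1, 2, 3 or 4 (1.07 to 1.29, adjusted p = 0.0569 to 0.172), and AT2G03933 without oastlB replicates 1, 2, 3 or 4 or WT replicates 1, 2, 3 or 4 (1.42 to 1.66, adjusted p = 0.0501 to 0.138). SAG12, a cysteine protease of leaf senescence, was picked out after its values were seen: it was called (1.64 ± 0.40, adjusted p = 0.0403) on values of 5.86, 1.99, 3.62 and 3.58 in oastlB, against 2.45, 2.09, 2.06 and 1.90 in WT, where replicate 1 of oastlB stood far above the others and replicate 2 lay among WT. SAG12 lost its call without oastlB replicates 1, 3 or 4 or WT replicates 1, 2, 3 or 4 (0.94 to 1.74, adjusted p = 0.0537 to 0.126).

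A few smaller rises were picked out for their known roles after their values were seen. SIGE, a sigma factor of the plastid RNA polymerase, read 6.79, 6.43, 6.17 and 6.37 in oastlB, against 5.59, 5.75, 5.74 and 6.01 in WT (0.67 ± 0.13, adjusted p = 0.0106). NAC089, a membrane-bound transcription factor, read 6.59, 6.74, 6.80 and 6.95 in oastlB, against 6.27, 6.08, 6.04 and 5.94 in WT (0.68 ± 0.11, adjusted p = 0.001). Neither gene's groups overlapped, and both calls held with any 1 array left out but not with only the 8 compared arrays (adjusted p = 0.129 for SIGE and adjusted p = 0.0742 for NAC089). SWEET13, a sucrose exporter, rose by 0.82 ± 0.17, adjusted p = 0.0106, and lost its call without oastlB replicate 4 or WT replicate 4 (0.69 to 0.74, adjusted p = 0.057 to 0.079).

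Among the largest falls were those of 2 genes of auxin-related families. SAUR22 (AT5G18050), of the small auxin up RNA family that promotes cell expansion, read 2.31, 2.26, 2.23 and 1.74 in oastlB, against 3.90, 4.02, 3.42 and 3.78 in WT. The oastlB arrays were all below the WT arrays (-1.64 ± 0.26, adjusted p = 0.001). All 8 values lay below 4.12, the highest value of the root and floral markers. ATAUX2-11, an Aux/IAA repressor of auxin responses also known as IAA4, read 3.89, 3.35, 3.85 and 3.41 in oastlB, against 5.19, 4.76, 4.93 and 4.55 in WT (-1.23 ± 0.25, adjusted p = 0.0106). It lost the call without oastlB replicate 4 (-1.16, adjusted p = 0.0571). PIF4, a basic helix-loop-helix factor of shade growth, fell (-0.40 ± 0.09, adjusted p = 0.0305). It was the 1 called gene of 8 in the shade and elongation list, against 0.855% of all genes. PIF4 read 8.05, 7.79, 7.93 and 7.74 in oastlB, against 8.29, 8.40, 8.14 and 8.29 in WT, and lost its call without oastlB replicates 2 or 4 or WT replicates 1, 2 or 4 (-0.40 to -0.35, adjusted p = 0.0614 to 0.132).

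Other falls without overlap were those of AT3G01345 (-3.65 ± 0.51, adjusted p = 1.9e-04), MRD1 (-2.34 ± 0.21, adjusted p = 8.5e-09), HEI10, a factor of meiotic crossover (-1.25 ± 0.19, adjusted p = 6.1e-04), RABH1e, a small GTPase (-1.04 ± 0.23, adjusted p = 0.0213), and BBX30, a B-box microprotein (-0.94 ± 0.19, adjusted p = 0.0106). The loci without a gene name that fell were AT4G22517 (-1.54 ± 0.30, adjusted p = 0.0081), AT3G55646, AT1G14200, AT5G57890, AT2G09990, AT1G77960 and AT4G22505, by 0.94 to 1.54 on the log2 scale. All 8 values of BBX30, AT4G22517, AT2G09990 and AT4G22505 lay below 4.12, the highest value of the root and floral markers. AT4G22505 and AT4G22517 carry neighbouring locus numbers, and their probes may overlap. Of these 12 falls, those of AT3G01345, MRD1, HEI10 and AT3G55646 held with any 1 array left out. With only the 8 compared arrays AT3G01345 and MRD1 stayed called, while HEI10 (adjusted p = 0.08) and AT3G55646 (adjusted p = 0.0896) did not. RABH1e lost its call without oastlB replicates 2 or 4 or WT replicates 3 or 4 (-1.03 to -0.93, adjusted p = 0.0561 to 0.105), BBX30 without oastlB replicate 4 or WT replicate 4 (-0.89 to -0.70, adjusted p = 0.0568 to 0.0748), and AT4G22517 without oastlB replicate 4 (-1.37, adjusted p = 0.0547). AT1G14200 lost it without oastlB replicates 2 or 4 or WT replicates 3 or 4 (-1.13 to -0.93, adjusted p = 0.113 to 0.174), and AT2G09990 without oastlB replicates 2 or 4 or WT replicate 4 (-0.95 to -0.92, adjusted p = 0.054 to 0.07). AT5G57890 lost it without oastlB replicates 1, 2 or 4 or WT replicates 1, 2, 3 or 4 (-1.12 to -0.83, adjusted p = 0.0704 to 0.228), AT1G77960 without oastlB replicates 2, 3 or 4 or WT replicates 2, 3 or 4 (-0.99 to -0.86, adjusted p = 0.0652 to 0.146), and AT4G22505 without oastlB replicates 2, 3 or 4 or WT replicates 1, 2, 3 or 4 (-0.99 to -0.82, adjusted p = 0.0604 to 0.137).

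Some of these genes set WT apart from all mutant lines rather than oastlB alone. AT3G01345 averaged 4.08 in oastlB, 3.66 in serat2;1, 3.46 in cyp20-3 and 3.37 in 2cysprx in high light, against 7.73 in WT. MRD1 averaged 2.46 in oastlB, 2.68 in serat2;1, 2.53 in cyp20-3 and 2.75 in 2cysprx, against 4.80 in WT. HEI10, whose annotated span overlaps that of MRD1, averaged 3.65, 3.76, 3.84 and 3.84 in the lines in the same order, against 4.90 in WT. HSFA2 averaged 4.79, 3.48, 3.76 and 3.96 in that order, against 6.47 in WT, so oastlB was the highest mutant line. AT3G55646 averaged 4.76, 4.96, 5.21 and 4.98, against 5.95 in WT. AT4G22505, AT1G77960 and AT1G14200 also had their highest mean in WT. AGL34 and AT2G03933 were about as high in serat2;1 as in oastlB. Their differences of oastlB from serat2;1 were -0.02, adjusted p = 0.9925 and 0.04, adjusted p = 0.9875. By contrast NUDT24 averaged 6.98 in oastlB, 4.62 in serat2;1, 4.87 in cyp20-3 and 4.96 in 2cysprx, against 4.21 in WT. F3H averaged 7.38 in oastlB, 6.33 in serat2;1, 6.22 in cyp20-3 and 6.00 in 2cysprx, against 6.11 in WT. Among the 125 genes called higher, oastlB had the highest mean of the 5 genotypes in 112 and WT the lowest in 66. Among the 113 called lower, oastlB had the lowest mean in 98 and WT the highest in 82. The call itself favours both, so these counts only describe the called genes.

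In normal light the fit over all 40 arrays called 598 genes higher and 355 lower in oastlB (2.15% and 1.28%, together 3.42% of those tested), with 12 of the 953 at least 2-fold apart. With only the 8 compared arrays in the fit, 2 genes were called in normal light and 31 in high light, so which light had more calls depended on the arrays fitted. Of the 238 genes called in high light, 24 were also called in normal light, 10.1% of the high light calls and 2.52% of the normal light calls. Of these 24, 9 had the same sign and 15 the opposite sign. OASB, MRD1 (-2.23 ± 0.21 in normal light), AT3G01345 (-1.96 ± 0.51) and HEI10 (-0.77 ± 0.19) were lower in both lights. So were EBF2, an F-box protein of ethylene signalling (-0.68 ± 0.10 in high light and -0.48 ± 0.10 in normal light), and MEK1, a mitogen-activated protein kinase kinase (-0.52 ± 0.10 and -0.40 ± 0.10). EBF2 read 5.42, 5.44, 5.43 and 5.52 in oastlB, against 6.07, 6.04, 6.29 and 6.13 in WT in high light, a narrow spread in both groups. ECT1, of the YTH family that reads methylated adenosine in RNA, was higher in both (0.38 ± 0.08 and 0.32 ± 0.08).

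Opposite signs included the dehydrin COR47, higher in oastlB in high light (0.59 ± 0.14) and lower in normal light (-0.68 ± 0.14), and the metallothionein MT2A (0.40 ± 0.10 and -0.66 ± 0.10). CIPK20, a protein kinase that works with calcineurin B-like calcium sensors, was lower in high light (-0.51 ± 0.10) and higher in normal light (0.41 ± 0.10), as was the scaffold protein gene RACK1B_AT (-0.53 ± 0.12 and 0.58 ± 0.12). COR47 averaged 10.21 ± 0.39 in oastlB and 9.62 ± 0.19 in WT in high light and 9.99 ± 0.07 in oastlB and 10.66 ± 0.12 in WT in normal light (SD, n = 4). These 7 genes outside the largest differences were picked out after their values were seen. COR47 lost its high light call without oastlB replicates 3 or 4 or WT replicates 1 or 2 (0.41 to 0.59, adjusted p = 0.0608 to 0.178), and MT2A without oastlB replicates 3 or 4 or WT replicates 1, 2, 3 or 4 (0.31 to 0.44, adjusted p = 0.0536 to 0.209). CIPK20 lost it without oastlB replicate 4 or WT replicate 4 (-0.47 to -0.40, adjusted p = 0.0599 to 0.0887), RACK1B_AT without oastlB replicates 2, 3 or 4 or WT replicates 1 or 4 (-0.56 to -0.50, adjusted p = 0.0568 to 0.0919), and ECT1 without oastlB replicate 2 or WT replicate 4 (0.32 to 0.35, adjusted p = 0.0508 to 0.0917).

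The test of the difference between the lights called 324 genes in which oastlB minus WT was higher in high light and 455 in which it was lower (2.80% of those tested). It called 104 of the 238 genes, 43.7%, and for the other 134 the difference between the lights missed the threshold. Both tests use the same high light arrays, so a call in high light favours a call here. The 43.7% therefore only describes the 238 genes and cannot be set against the 2.80%. The largest positive values were those of NUDT24 (2.67 ± 0.54, adjusted p = 0.0048), AHP4 (2.46 ± 0.40, adjusted p = 8.1e-04), AT1G64360 (1.79 ± 0.36, adjusted p = 0.0048), AT5G39520 (1.78 ± 0.40, adjusted p = 0.0118) and GAMMA-VPE, a vacuolar processing protease (1.70 ± 0.28, adjusted p = 8.4e-04). GAMMA-VPE averaged 9.26 ± 0.75 in oastlB and 8.19 ± 0.07 in WT in high light and 9.11 ± 0.17 in oastlB and 9.75 ± 0.16 in WT in normal light (SD, n = 4). Its oastlB replicate 2 read 8.23 in high light, among the WT values of 8.11 to 8.25, while the other oastlB arrays read 9.25 to 9.97. Its call in high light (1.07 ± 0.20, adjusted p = 0.0064) held with any 1 array left out but not with only the 8 compared arrays (adjusted p = 0.198).

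The largest negative values were those of SAUR20 (-1.63 ± 0.45, adjusted p = 0.0424), AT4G22517 (-1.53 ± 0.42, adjusted p = 0.0401), RVE7 (-1.47 ± 0.28, adjusted p = 0.003), AT3G17890 (-1.46 ± 0.27, adjusted p = 0.0028) and AT5G33355 (-1.46 ± 0.38, adjusted p = 0.0319). The high light values of AT4G22517, AT3G17890 and AT5G33355 in oastlB and WT all lay below 4.12, the highest value of the root and floral markers. SAUR20 averaged 5.30 ± 0.66 in oastlB and 5.94 ± 0.29 in WT in high light and 4.58 ± 0.61 in oastlB and 3.58 ± 0.73 in WT in normal light. RVE7 (AT1G18330), a MYB factor of the clock output, was called in high light (-0.90 ± 0.20, adjusted p = 0.0165). RVE7 was the 1 called gene of 10 in the morning clock list, against 0.855% of all genes. It read 5.58, 5.32, 5.96 and 5.27 in oastlB, against 5.96, 6.02, 6.42 and 7.36 in WT, where oastlB replicate 3 and WT replicate 1 were level and WT replicate 4 was the highest. RVE7 lost its call without oastlB replicates 2 or 4 or WT replicate 4 (-0.83 to -0.60, adjusted p = 0.0591 to 0.102).

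**Figure D5:**
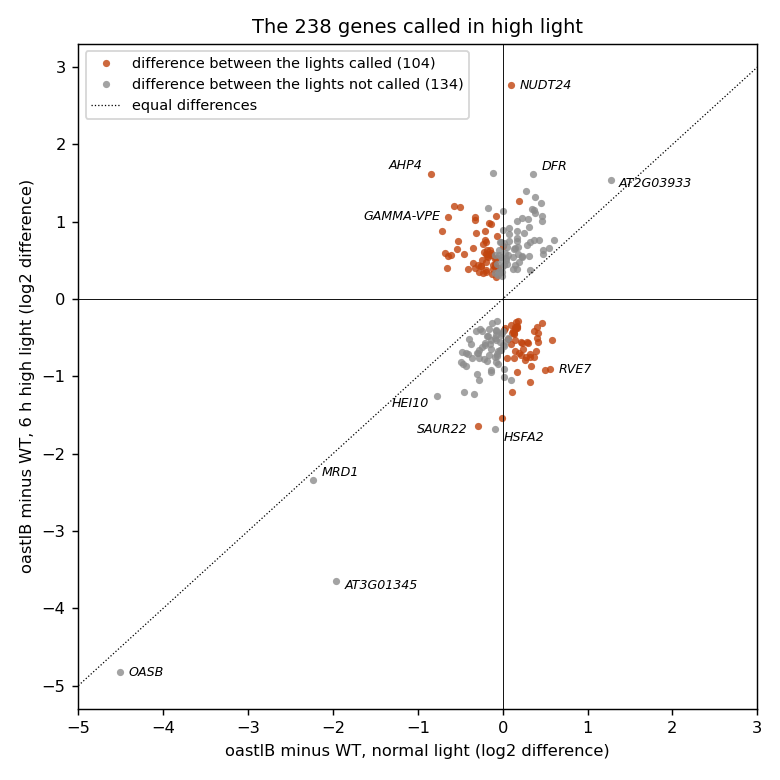
Difference of oastlB from WT (log2) in normal light (horizontal axis) and after 6 h of high light (vertical axis) for the 238 genes called in high light, 104 of them with a called difference between the lights. OASB, MRD1 and HEI10 lie near the dotted line of equal differences, and NUDT24 and AHP4 far from it.

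Of 10 evening clock genes 6 were called lower in oastlB in normal light, against 1.28% of all genes, and 0 were called by limma in high light, where 3 had an unadjusted p under 0.05, against 13.8% of all genes. ELF4, of the evening complex, averaged 7.07 ± 0.17 in oastlB and 8.09 ± 0.17 in WT in normal light and 7.22 ± 0.43 in oastlB and 6.85 ± 0.14 in WT in high light (SD, n = 4). The difference between the lights was called for ELF4 (1.39 ± 0.22, adjusted p = 8.1e-04), TOC1 (0.67 ± 0.11, adjusted p = 8.4e-04), COR27 (1.24 ± 0.20, adjusted p = 8.1e-04) and COR28 (1.21 ± 0.17, adjusted p = 2.6e-04). Of 24 genes of abscisic acid and dehydration 7 were called lower in normal light, against 1.28% of all genes, and 17 were not called. In high light 0 were called by limma and 7 had an unadjusted p under 0.05, against 13.8% of all genes. There 20 of the 24 differences were above 0, against 49.9% of all genes. RD29A, a dehydration-responsive gene, read 9.81, 9.64, 10.02 and 10.15 in oastlB, against 9.23, 9.32, 9.63 and 9.40 in WT in high light (0.51 ± 0.14, adjusted p = 0.064), and -0.82 ± 0.14 was its difference in normal light (1.33 ± 0.19, adjusted p = 2.8e-04 between the lights). RD20, a caleosin, gave 1.57 ± 0.32, adjusted p = 0.0053 between the lights. The normal light calls come from the fit over all 40 arrays; the count over all genes was 953 there and 2 with only the 8 compared arrays.

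Set against serat2;1, the line named for the enzyme of the step before, oastlB in high light had 174 genes higher and 162 lower (0.625% and 0.582%, together 1.21% of those tested). With only the 8 compared arrays in the fit, 1 gene was called against serat2;1. This comparison shares the oastlB arrays with that against WT, so the values are only set side by side. The transcript SERAT2;1 was not lower on the arrays labelled serat2;1, at a mean of 6.60 in oastlB and 6.81 in serat2;1. Called with the same sign against both were 47 genes. Their largest rises were NUDT24 (2.77 ± 0.38 against WT and 2.36 ± 0.38 against serat2;1), F3H (1.27 ± 0.21 and 1.04 ± 0.21), AT1G34060 (1.19 ± 0.25 and 1.25 ± 0.25), 5MAT (1.15 ± 0.22 and 0.91 ± 0.22) and ELIP1 (1.08 ± 0.20 and 0.80 ± 0.20). Their largest falls after OASB (-4.80 ± 0.14 against serat2;1) were ACT11, an actin gene (-0.75 ± 0.14 and -0.92 ± 0.14), AGP16, an arabinogalactan protein (-0.72 ± 0.12 and -0.82 ± 0.12), AT2G41560, an autoinhibited calcium ATPase (-0.71 ± 0.13 and -0.95 ± 0.13), and CNGC11, a cyclic nucleotide-gated channel (-0.66 ± 0.13 and -0.55 ± 0.13).

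ACT11 read 5.76, 4.97, 5.78 and 5.45 in oastlB, against 6.31, 6.37, 6.08 and 6.19 in WT in high light, without overlap. AT1G34060 read 4.47, 3.01, 4.04 and 4.70 in oastlB, against 2.60, 2.99, 3.11 and 2.76 in WT, where oastlB replicate 2 lay among WT, and lost its call without oastlB replicate 4 or WT replicate 4 (0.98 to 1.16, adjusted p = 0.05 to 0.0879). CNGC11 lost its call without oastlB replicate 2 (-0.57, adjusted p = 0.0508). Of the early flavonoid genes 5 of 16 and of the anthocyanin genes 2 of 22 were higher in oastlB than in serat2;1, against 0.625% of all genes. Of the 26 heat shock genes 7 were higher than in serat2;1, among them HSP90.1 (2.33 ± 0.39), ROF2 (2.24 ± 0.38), HSP101 (2.07 ± 0.41) and HSP70 (1.88 ± 0.34), which were not called against WT and were highest on oastlB replicate 2. MBF1C, a transcriptional coactivator, was 1.06 ± 0.27 against serat2;1 and -0.92 ± 0.27 against WT, where it was not called. SDI1 was lower in oastlB than in serat2;1 (-1.15 ± 0.26, adjusted p = 0.0161). The light harvesting and chlorophyll lists had 0 members called against serat2;1 by limma, with 0 of 18 and 1 of 13 at an unadjusted p under 0.05, against 10.8% of all genes.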

How the data were processed

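Shoot RNA was measured on Affymetrix arrays, and the deposited values are log2 levels; the submitters' processing notes name RMA as the step by which the authors made them. Neither the labels nor the notes used here give the array type or the probe set grouping. RMA sets all arrays to one distribution, so a shift shared by all genes is lost and bright values can tie. The 27826 probe sets are named by locus, and 27241 loci matched RefSeq's gene table (TAIR10.1), used for names and neighbours. No filter was set. limma 3.58.1 in R 4.3.3 fitted a mean per group over all 40 arrays, with Benjamini-Hochberg adjustment per contrast. The number of arrays limits the precision. The groups follow the titles, and the labels call the arrays biological replicates. The test was run on simulated data first. The alternatives were only the compared arrays, replicate numbers as a block, an intensity trend, array weights, quantile and cyclic loess normalization, brighter genes only, genes near OASB left out, and each array left out in turn.

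The genes and 34 gene lists were chosen with earlier results of these data known. Named were all genes of the cysteine synthase list, the 15 largest called rises and 15 largest called falls without overlap, up to 2 called rises and 2 called falls per list, in sulfur lists with none called the 2 members farthest from 0, the 5 largest of each sign for the difference between the lights, and the 5 largest of each sign called against both WT and serat2;1. Further genes were named after their values were seen, to describe a list or a pathway step: APR1, SDI1, F3'H, LDOX, UF3GT, UGT75C1, 3AT2, the anthocyanin regulators, 4CL3, FLS1, LHCB1.2, CHS, CHI, CAO, HEMA1, CHLG, ELIP2, and the heat shock, evening clock and dehydration genes beside HSFA2. The plastid-encoded list had 1 of 13 members on the array and is not described.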

Additional observations from a re-analysis of the deposited data

Results flagged for a closer look

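Of 224 groups of 4 arrays (112 named genes in oastlB and in WT in high light), 23 held an array far from the other 3 by Dixon's criterion, which chance gives in about 1 group in 20. Of these, 5 were heat shock genes on oastlB replicate 2, where HSP101 read 8.79 against 6.37 to 6.55 on the other oastlB arrays, HSP17.8 read 8.98 against 5.21 to 5.61 on the other oastlB arrays, HSP90.1 9.49 against 7.24 to 7.45, HSP70 11.70 against 9.77 to 10.03 and ROF2 10.46 against 8.08 to 8.42. On WT replicate 1, SERAT3;1 read 5.12 against 5.38 to 5.42 on the other WT arrays, and RD20 7.56 against 7.75 to 7.77. On WT replicate 2, GGT4 read 5.99 against 5.68 to 5.71 on the other WT arrays, and ELIP1 4.71 against 4.05 to 4.13. On WT replicate 3, CYSC1 read 10.07 against 9.90 to 9.91 on the other WT arrays, CHS 8.66 against 8.89 to 8.92 and HEMA1 9.28 against 9.41 to 9.42. On WT replicate 4, SHM7 read 6.97 against 7.18 to 7.21 on the other WT arrays, LBD39 7.39 against 7.63 to 7.67, LHCB1.1 2.98 against 2.63 to 2.68, ELF4 6.64 against 6.90 to 6.93 and NUDT24 3.58 against 4.35 to 4.49. On oastlB replicate 1, OASA1 read 8.46 against 8.13 to 8.18 on the other oastlB arrays, and MRD1 2.86 against 2.29 to 2.34. On oastlB replicate 2, UF3GT read 5.88 against 6.25 to 6.30 on the other oastlB arrays, AT3G17890 2.34 against 3.13 to 3.26 and AT5G39520 4.73 against 5.78 to 5.93. On oastlB replicate 4, SAUR22 read 1.74 against 2.23 to 2.31 on the other oastlB arrays. 

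The oastlB minus WT difference was itself different between high and normal light (limma's test of the difference, adjusted p under 0.05) for 41 of the 112 named genes. Over all genes the share was 2.80%. Some of the 112 were named for this test, for a high light call on the same arrays or after their values were seen. The count therefore only describes them. The difference between the lights is given here as high minus normal light ± standard error on the log2 scale. It was positive for APR1 (0.60 ± 0.17, adjusted p = 0.0462), F3H (1.08 ± 0.29, adjusted p = 0.0374), TOC1 (0.67 ± 0.11, adjusted p = 0.000836), ELF4 (1.39 ± 0.22, adjusted p = 0.00081) and COR27 (1.24 ± 0.20, adjusted p = 0.00081). It was also positive for COR28 (1.21 ± 0.17, adjusted p = 0.00026), RD29A (1.33 ± 0.19, adjusted p = 0.000283), RD20 (1.57 ± 0.32, adjusted p = 0.00526), NUDT24 (2.67 ± 0.54, adjusted p = 0.00479) and AHP4 (2.46 ± 0.40, adjusted p = 0.00081). Positive values were further those of PYD4 (1.15 ± 0.31, adjusted p = 0.0359), AT1G64360 (1.79 ± 0.36, adjusted p = 0.00476), AT5G39520 (1.78 ± 0.40, adjusted p = 0.0118), GAMMA-VPE (1.70 ± 0.28, adjusted p = 0.000836) and AT1G34060 (1.70 ± 0.35, adjusted p = 0.00522). A positive sign was also seen for COR47 (1.27 ± 0.20, adjusted p = 0.000586), MT2A (1.05 ± 0.14, adjusted p = 0.000171), SWEET13 (0.88 ± 0.23, adjusted p = 0.0343) and NAC089 (0.68 ± 0.15, adjusted p = 0.0108). It was negative for CS26 (-0.64 ± 0.15, adjusted p = 0.0167), LBD39 (-0.99 ± 0.24, adjusted p = 0.0224), LHCB1.1 (-1.04 ± 0.20, adjusted p = 0.00329), LHCB1.2 (-0.42 ± 0.12, adjusted p = 0.0428) and GUN4 (-0.97 ± 0.20, adjusted p = 0.00482). Negative values were further those of PORB (-0.40 ± 0.10, adjusted p = 0.0201), HEMA1 (-0.63 ± 0.14, adjusted p = 0.0121), CAO (-0.47 ± 0.10, adjusted p = 0.00728), CHLG (-0.32 ± 0.09, adjusted p = 0.0428) and RVE7 (-1.47 ± 0.28, adjusted p = 0.00305). It was also negative for SAUR22 (-1.35 ± 0.37, adjusted p = 0.0378), AT4G22517 (-1.53 ± 0.42, adjusted p = 0.0402), AT3G55646 (-1.30 ± 0.26, adjusted p = 0.00482), AT5G57890 (-1.40 ± 0.39, adjusted p = 0.041) and BBX30 (-1.11 ± 0.27, adjusted p = 0.0198). A negative sign was also seen for SAUR20 (-1.63 ± 0.45, adjusted p = 0.0424), AT3G17890 (-1.46 ± 0.27, adjusted p = 0.00278), AT5G33355 (-1.46 ± 0.38, adjusted p = 0.0319), ACT11 (-1.06 ± 0.20, adjusted p = 0.0031) and AGP16 (-0.94 ± 0.16, adjusted p = 0.00132). The remaining negative values were those of CIPK20 (-0.92 ± 0.15, adjusted p = 0.00081) and RACK1B_AT (-1.11 ± 0.17, adjusted p = 0.000565).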

How the results depend on the processing

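In high light 238 genes were called; the count was 31 with only the 8 arrays compared, 367 with an intensity trend, and 69 (without oastlB replicate 4) to 320 (without oastlB replicate 1) with 1 array left out, and 73 without WT replicate 4. For normal light, 953 became 2 with only the compared arrays, 1579 with brighter genes only, and 420 to 987 with 1 array left out. For the difference between the lights, 779 became 140, 1342 and 414 to 958 under the same settings. Against serat2;1, 336 became 1 with only the compared arrays, 175 with array weights, and 126 to 427 with 1 array left out. The cause of these moves was not tested, apart from the fewer arrays that some settings leave. The replicate block gave 260, 1053, 873 and 364 calls; same-numbered arrays of oastlB and WT in high light correlated at -0.0469 to 0.0328 in their deviations, those in normal light at 0.0193 to 0.116, and those of oastlB and serat2;1 at -0.0576 to 0.0779. In no comparison was every pair above 0.1, so the numbers were not taken to pair the samples. Quantile normalization left all 4 counts as they were, but the deposited arrays already share 1 distribution, so this setting could not test them. Its 112 unchanged values are among those kept in the next count. Of 1755 values of the 112 named genes under the alternatives, 1520 kept their side of the threshold and direction, 213 lost the call and 22 gained one; no called gene changed sign, and 9 of 62 called genes stayed called in every alternative. Counts of called list members moved in 71 of 542 cases.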
